A study of Mus musculus with 14 samples.

Results

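Cholesterol and lipid regulating microRNAs (miRNAs) were followed in small extracellular vesicles released by mouse neutrophils. The group is a list of 9 mature miRNA names, chosen by name and not by any measured value: mmu-miR-33-5p, mmu-miR-33-3p, mmu-miR-128-3p, mmu-miR-758-3p, mmu-miR-185-5p, mmu-miR-96-5p, mmu-miR-122-5p, mmu-miR-378a-3p and mmu-miR-378a-5p. All 9 were among the 1695 mouse miRNA names in the deposited table of counts, and each had at least 1 count somewhere. The vesicles came from primary neutrophils, Ly6G-positive bone marrow cells of female wild-type mice of the BALB/c strain, treated for 48 h. One group received the solvent DMSO and the other 10 µM 27-hydroxycholesterol (27HC), an oxysterol that cells make from cholesterol. Small RNA from the vesicles was sequenced in 7 libraries per group. Each library's description carries a pair of consecutive numbers, and what they mark is not stated. The labels do not give the age of the mice, nor whether the replicates came from separate mice. The p-values here thus measure only the spread between these libraries, which may be technical.

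A miRNA guides the silencing machinery to messenger RNAs that pair with its seed, bases 2 to 8 from the 5′ end, and lowers their output. Several miRNAs act on sterol balance: they limit the ABC transporters that export cholesterol, the receptors that take up lipoproteins, or the enzymes that make sterols and burn fatty acids. Oxysterols such as 27HC act on the same balance, as ligands of the liver X receptors, which switch on export, and as inhibitors of the processing of SREBP-2, which switches on synthesis and uptake. miR-33 is the classic link between these systems, because its hairpin lies inside the gene for SREBP-2.

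RefSeq mature sequences (GRCm38.p6) were matched for 5 of the 9 names. They are shown because the seed sets which messages each miRNA can pair with, and capitals mark it.
miR-33-5p: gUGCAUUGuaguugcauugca
miR-33-3p: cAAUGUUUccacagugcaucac
miR-128-3p: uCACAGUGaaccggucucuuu
miR-758-3p: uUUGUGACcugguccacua
miR-96-5p: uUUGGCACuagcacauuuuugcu
miR-27a-3p: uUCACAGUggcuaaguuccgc
The last line is not one of the 9, and stands here for its overlap with miR-128-3p. Both hold the run UCACAGUG of 8 bases, at position 1 of miR-128-3p and position 2 of miR-27a-3p, so their seeds are the same bases moved by 1 place. The 5 seeds differ from one another. Among 1431 names of the table with a RefSeq sequence, miR-96-5p shared its seed with 1 name, miR-1271-5p, and each of the other 4 with none.

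The hairpins lie in different places of the genome, and those of miR-33 and miR-378a are inside genes of metabolism. In the GRCm38 annotation, Mir33 is at chromosome 15, 82198122 to 82198190, on the plus strand, in an intron of Srebf2, the gene for SREBP-2. miR-128-3p has a pair of source hairpins. Mir128-1 lies at chromosome 1, 128202361 to 128202430, plus strand, in an intron of R3hdm1, and Mir128-2 at chromosome 9, 112118636 to 112118711, minus strand, in an intron of Arpp21. Mir185 is at chromosome 16, 18327401 to 18327465, minus strand, in an intron of Tango2. Mir378a is intronic too, within Ppargc1b, which encodes a coactivator of mitochondrial and lipid metabolism. Mir96 (chromosome 6, 30169446 to 30169551, minus strand) and Mir758 (chromosome 12, 109712810 to 109712890, plus strand) are intergenic, and Mir122 overlaps an exon of a long noncoding RNA.

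Libraries held 112914 to 871189 counts. Levels are given as counts per 1000000 counts (CPM) after TMM scaling of the library sizes, and 3 counts, the most that a count of 0 allows, came to 4.09 to 24.6 CPM per library. These limits and the counting intervals below cover counting error only. The neutrophil miRNA miR-223-3p was the second most abundant name (rank 2), and a list of 4 myeloid miRNAs summed to 83291 to 216664 CPM in DMSO and 113054 to 149157 CPM in 27HC libraries. Most of that sum was miR-223-3p, which was not called. Of the other 3, edgeR called miR-142a-3p lower in 27HC, by a log2 fold change of −1.53 (adjusted p = 3.55e-05) and with groups that did not overlap, and miR-142a-5p lower by −0.74 (adjusted p = 0.0223), while miR-223-5p was at 0.17 and not called. The part of these differences in the values below was not tested. In vesicle RNA measured in bulk, fewer vesicles of one kind and less of a miRNA per vesicle cannot be told apart.

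None of the 9 miRNAs was called as changed by 27HC. Of the 239 names with enough counts for edgeR's quasi-likelihood test, 30 (12.6%) had a Benjamini-Hochberg adjusted p under 0.05, with 9 higher and 21 lower in 27HC. Upper quartile scaling gave 7 higher and 30 lower. Among the 239 were 5 of the 9, namely miR-122-5p, miR-378a-3p, miR-128-3p, miR-185-5p and miR-378a-5p, and 0 of these 5 were called. DESeq2 and limma-voom also called 0 of the 5, and the smallest unadjusted p was 0.118 in edgeR, so 0 of the 5 were under 0.05 before adjustment, against 53 of the 239. Fitted log2 fold changes ran from −0.13 to 0.23, with 3 above 0 and 2 below and a median of 0.06, against a median of 0.01 over all tested names. Under upper quartile scaling 2 of the 5 were above 0. The groups overlapped for all 5, where 5.44% of tested names had groups that did not overlap. The other 4, miR-33-5p, miR-33-3p, miR-96-5p and miR-758-3p, had too few counts for that test. In a fit of replicates 1 to 4 alone, 6 of the 9 had enough counts, and 0 were called. Without a filter on low counts, 0 of the 9 were called, against 1.59% of the 1695 names. For miR-33-3p, miR-96-5p and miR-758-3p the counts were so few that a missing call says little.

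**Figure D1:**
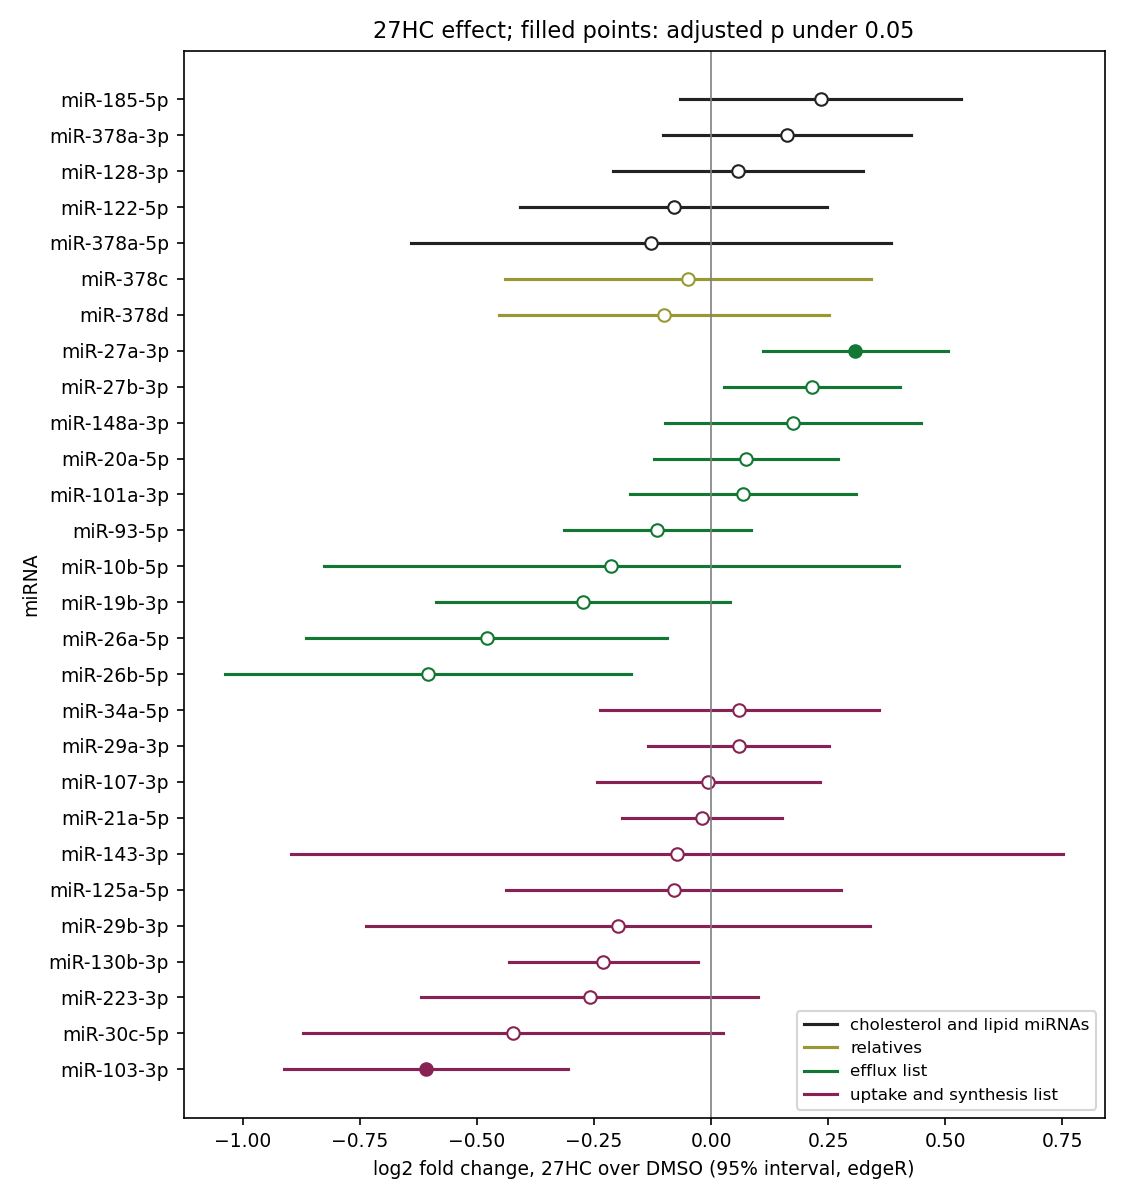
Log2 fold change of 27HC over DMSO from edgeR with its 95% interval, for the 5 tested cholesterol and lipid miRNAs, their tested relatives and 2 lists of other lipid miRNAs. Filled points had an adjusted p under 0.05: miR-27a-3p and miR-103-3p, neither of them one of the 5, whose intervals all cross 0.

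The members covered a wide range of abundance. CPM hold no length correction, and mature miRNAs are of similar length. How evenly the library preparation captures different miRNAs was not tested, so the order is one of counts in these libraries. Over the 14 libraries miR-122-5p averaged 3147 ± 641 CPM (SD, n = 14) and was above miR-378a-3p in 14 of 14 libraries. Next came miR-378a-3p at 1252 ± 200 CPM and miR-128-3p at 1134 ± 175 CPM. This neighbouring pair did not separate, since miR-378a-3p was the higher in only 10 of 14 libraries. miR-128-3p was in turn above miR-185-5p (936 ± 170 CPM) in all 14, and miR-185-5p was 8.88 times as abundant on average as miR-378a-5p (105 ± 29.6 CPM). miR-33-5p, at 37.5 ± 23.6 CPM, was below miR-378a-5p in each library. The remaining 3 averaged under 1 CPM. In all, the 5 tested members gave 24409 counts and the 4 scarce ones 144.

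**Figure D2:**
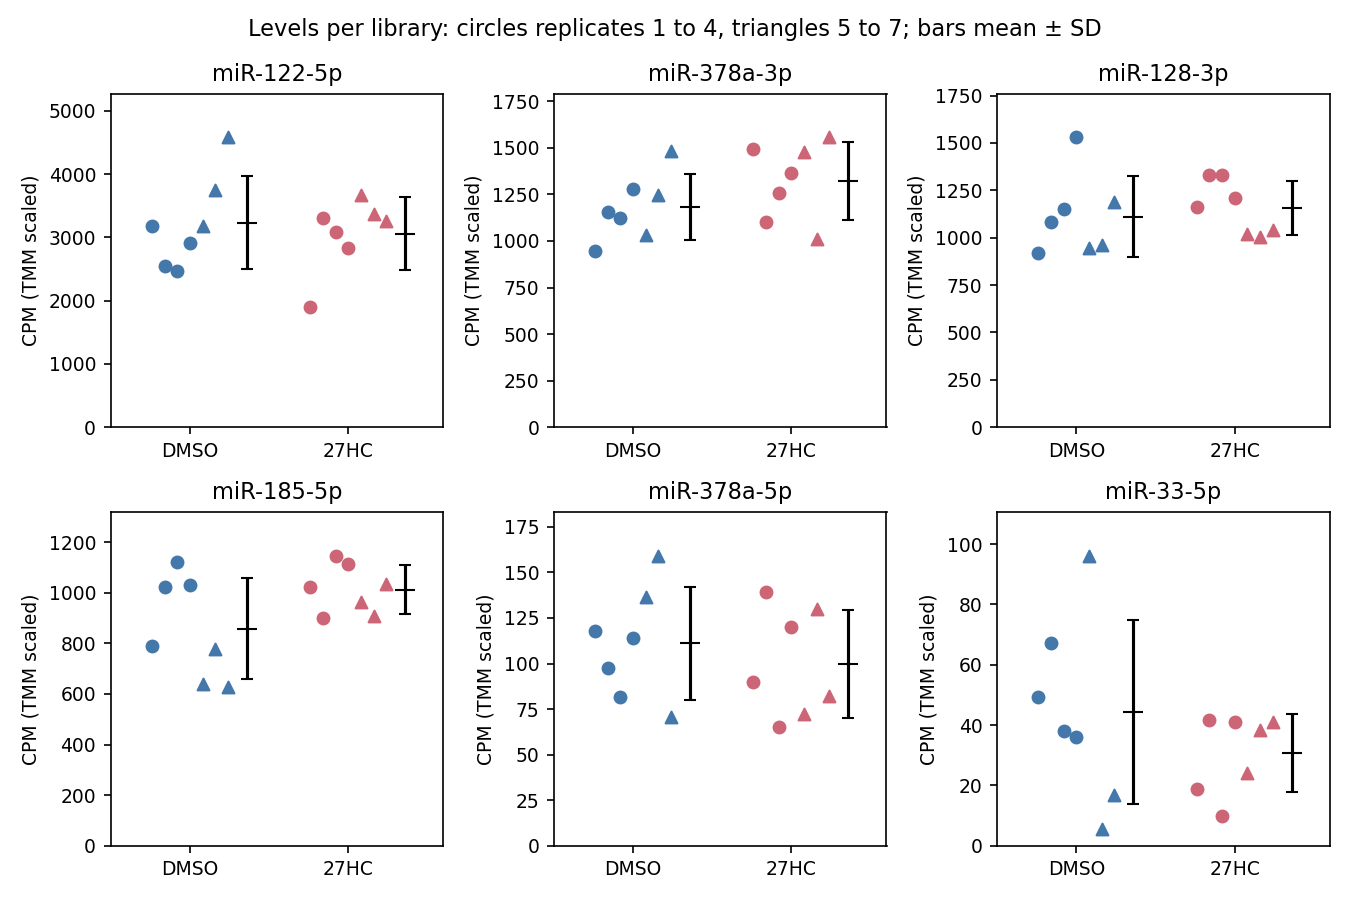
CPM per library of the 6 members found in all 14 libraries, in DMSO (blue) and 27HC (red), with circles for replicates 1 to 4, triangles for replicates 5 to 7 and the mean ± SD beside them. The groups overlap in each panel, miR-185-5p is less spread in 27HC than in DMSO, and miR-122-5p is highest in DMSO replicate 7.

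Among the miRNAs that act on cholesterol export, miR-33-5p, a repressor of the transporter ABCA1, was scarce but present in every library. It ranked 252 by mean CPM. DMSO replicates 1 to 7 gave 13, 20, 28, 13, 12, 1 and 5 counts, and 27HC replicates 1 to 7 gave 8, 9, 2, 13, 3, 5 and 5. DMSO levels ran from 5.69 CPM, the single count of replicate 6, to 96.2 CPM in replicate 5, with a median of 38.2. In 27HC they ran from 9.98 to 41.7 CPM, with a median of 38.3. Group medians were thus nearly equal, while 3 DMSO libraries (replicates 1, 2 and 5) lay above the highest 27HC library. Means were 44.2 ± 30.6 CPM in DMSO and 30.7 ± 12.9 CPM in 27HC (SD, n = 7 each). In replicates 1 to 4 the means were 47.7 ± 14.2 CPM in DMSO and 27.9 ± 16.0 CPM in 27HC (n = 4 each). Replicates 5 to 7 had 39.6 ± 49.4 and 34.4 ± 9.10 CPM (n = 3 each). Fitted without a filter, the log2 fold change was −0.60 (SE 0.48, 95% interval −1.54 to 0.34, edgeR adjusted p = 0.619). In that fit the median over all names was −0.19. The tested members were each lower in it than in the main fit, miR-185-5p for example at 0.11 against 0.23. A value below 0 in that fit is thus not particular to low names. Pooled over libraries, without TMM scaling, the level was 38.8 CPM in DMSO (exact 95% interval 31.3 to 47.5) and 29.0 CPM in 27HC (21.1 to 38.8), intervals that leave out the spread between libraries. The interval of the fitted value spans 0 and is wide on both sides.

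The opposite arm of the same hairpin, miR-33-3p, also acts on lipid genes and was hardly found. It had 1 count in DMSO replicate 3 and 1 in 27HC replicate 4, and 0 in the other 12 libraries. Over all libraries the 3p arm made up 2 of the 139 counts of both arms, or 1.44% (exact Clopper-Pearson 95% interval 0.175 to 5.10%). Of the hairpin inside Srebf2, the counts were thus mainly of the 5p arm.

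miR-758-3p, another repressor of ABCA1, had 1 count in all, in 27HC replicate 1. The 7 DMSO libraries together held 0 of 2373021 counts. The limit of 3 counts there came to 1.26 CPM, and the exact 95% interval was 0 to 1.55 CPM. In 27HC the pooled level was 0.644 CPM (exact 95% interval 0.0163 to 3.59). Both groups were under the limit that a count of 0 allows, so no fold is given.

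**Figure D3:**
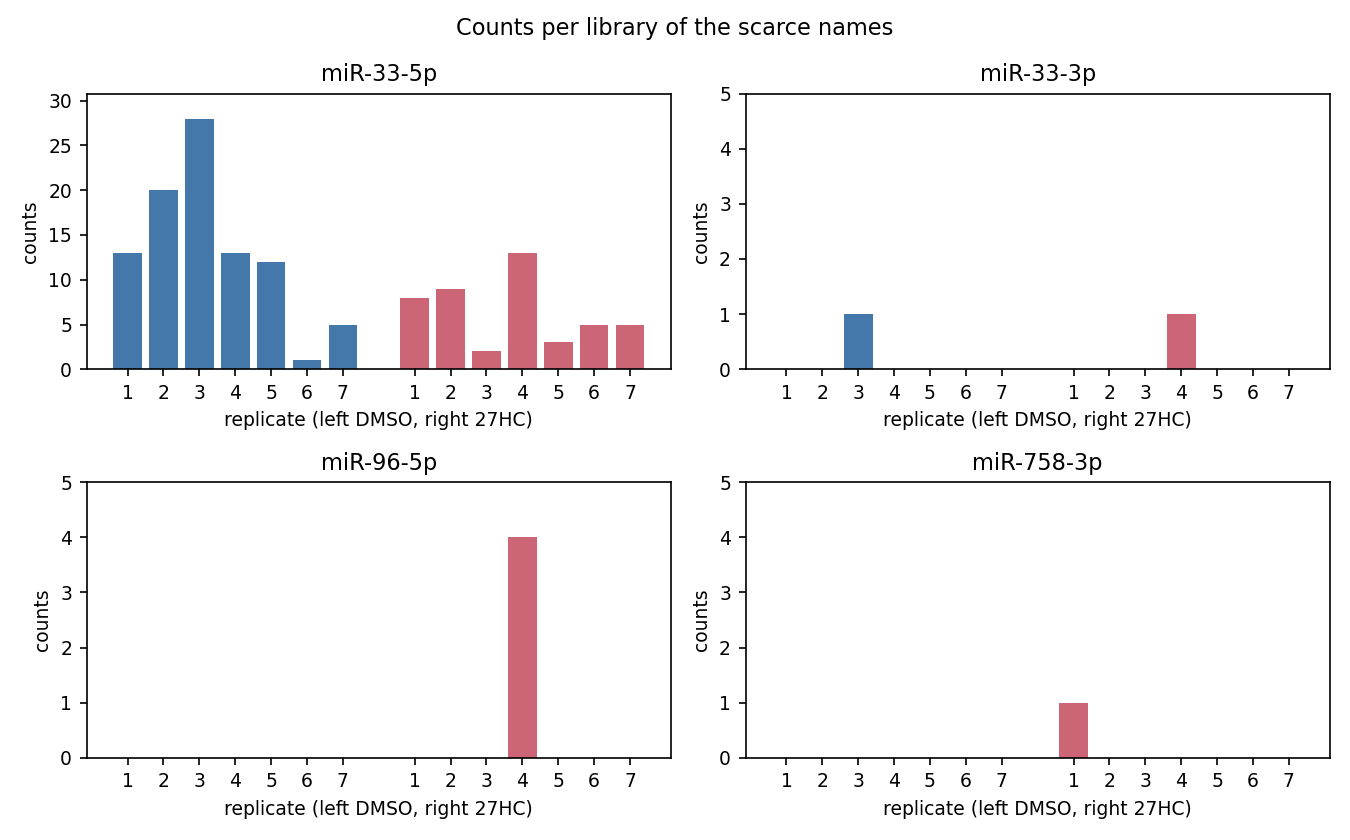
Counts per library of the 4 scarce members, DMSO replicates 1 to 7 at the left (blue) and 27HC replicates 1 to 7 at the right (red) of each panel. miR-33-5p has counts in all 14 libraries, miR-33-3p in 2, and miR-96-5p and miR-758-3p in 1 each.

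miR-128-3p, which acts on both ABCA1 and the LDL receptor, was by contrast well measured, at rank 62. DMSO libraries ran from 918 through a median of 1083 to 1531 CPM, and 27HC libraries from 1002 through 1162 to 1332 CPM. The lowest and the highest library were both DMSO (replicates 1 and 4), so the 27HC range lay inside the DMSO range. Means were 1111 ± 213 and 1157 ± 142 CPM (SD, n = 7), and edgeR fitted a log2 fold change of 0.06 (SE 0.13, 95% interval −0.21 to 0.32, adjusted p = 0.867). Upper quartile scaling turned the direction, to −0.02, and without DMSO replicate 4 the value was 0.21 (adjusted p = 0.317). The other arms of its hairpins were near absent or not analysed here: miR-128-1-5p had 3 counts in 3 DMSO libraries and 0 in 27HC.

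Uptake is the step tied to miR-185-5p and miR-96-5p, which both act on SR-BI, the receptor for high-density lipoprotein. miR-185-5p, also linked to the LDL receptor and to SREBP-2, had the largest fitted change of the 5 tested members. Its DMSO levels were 627 at the lowest, 789 at the median and 1121 CPM at the highest. The 27HC levels were 900, 1022 and 1148 CPM. Each of the 7 27HC libraries was above the DMSO median, while only 1 was above the highest DMSO library. The mean was 859 ± 199 CPM in DMSO and 1013 ± 95.9 CPM in 27HC (SD, n = 7), so that the difference was within 1 SD of the DMSO libraries. edgeR gave a log2 fold change of 0.23 (SE 0.14, 95% interval −0.07 to 0.53, adjusted p = 0.372).

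The low DMSO libraries of miR-185-5p were mostly those numbered 5 to 7. A division of the libraries into replicates 1 to 4 and 5 to 7 had been seen in an earlier look at the whole profiles. What it marks is not stated in the labels. The division was drawn from these same libraries, so values and p-values by set are a description, here and below. Within replicates 5 to 7, the DMSO libraries had 627 to 779 CPM and the 27HC libraries 910 to 1033 CPM. Within replicates 1 to 4, DMSO had 789 to 1121 CPM and 27HC 900 to 1148 CPM, so these groups overlapped. The fitted log2 fold change was 0.51 in replicates 5 to 7 (edgeR adjusted p = 0.181) and 0.14 in replicates 1 to 4. The difference between those effects was 0.43 (SE 0.21, 95% interval −0.02 to 0.88), with an edgeR p of 0.0612 and an adjusted p of 0.479. For the same difference, 0 of 239 names were called by edgeR and 24 had an unadjusted p under 0.05. Its opposite arm, miR-185-3p, had 14 counts in DMSO and 22 in 27HC.

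miR-96-5p had 4 counts in all, and every one of them was in 27HC replicate 4, where they came to 12.6 CPM. It was at 0 in the other 6 libraries of 27HC and in all 7 of DMSO, where a pooled count of 0 allows up to 1.26 CPM. The fit without a filter gave an unadjusted edgeR p of 0.0159 and an adjusted p of 0.311. This value rests on 1 library. The neighbours of miR-96 in its gene cluster were as scarce, with 4 counts in DMSO and 3 in 27HC for miR-182-5p, and 3 and 1 for miR-183-5p. miR-1271-5p, which has the same seed, had 1 count in each group.

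miR-122-5p, the main miRNA of hepatocytes and a regulator of cholesterol and fatty acid synthesis in liver, was the most abundant of the 9, at rank 40. In DMSO the lowest library had 2476, the median 3175 and the highest 4587 CPM. In 27HC the values were 1895, 3264 and 3672 CPM. DMSO replicate 7 was the highest library and 27HC replicate 1 the lowest, and the other 12 lay between 2476 and 3743 CPM in an overlapping range. The means, 3232 ± 736 CPM in DMSO and 3061 ± 575 CPM in 27HC (SD, n = 7), differed by less than the spread between libraries. The fitted log2 difference was −0.08 (SE 0.15, 95% interval −0.41 to 0.25, edgeR adjusted p = 0.840). Without DMSO replicate 7 it was 0.08, and without 27HC replicate 1 it was 0.07.

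Counts of miR-122-5p came with near-equal counts of another name, miR-122b-3p. Per library miR-122b-3p had 96.7 to 99.5% of the count of miR-122-5p, with a median of 98.7%. In DMSO replicate 3, for example, there were 1816 counts of miR-122-5p and 1772 of miR-122b-3p, and in 27HC replicate 7 there were 398 and 385. The largest difference in any library was 0.05 on the log2 scale. No other tested member had a name whose counts stayed within 0.1 log2 units of its own, the nearest being miR-107-3p to miR-128-3p at 0.36. The counting rule and its use of strand are not given in the sources used here. Whether miR-122-5p and miR-122b-3p are separate measurements was not tested, and they are not read here as separate results. The other arms had few counts: miR-122-3p had 1 in DMSO and 4 in 27HC, and miR-122b-5p had 0 and 5.

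**Figure D4:**
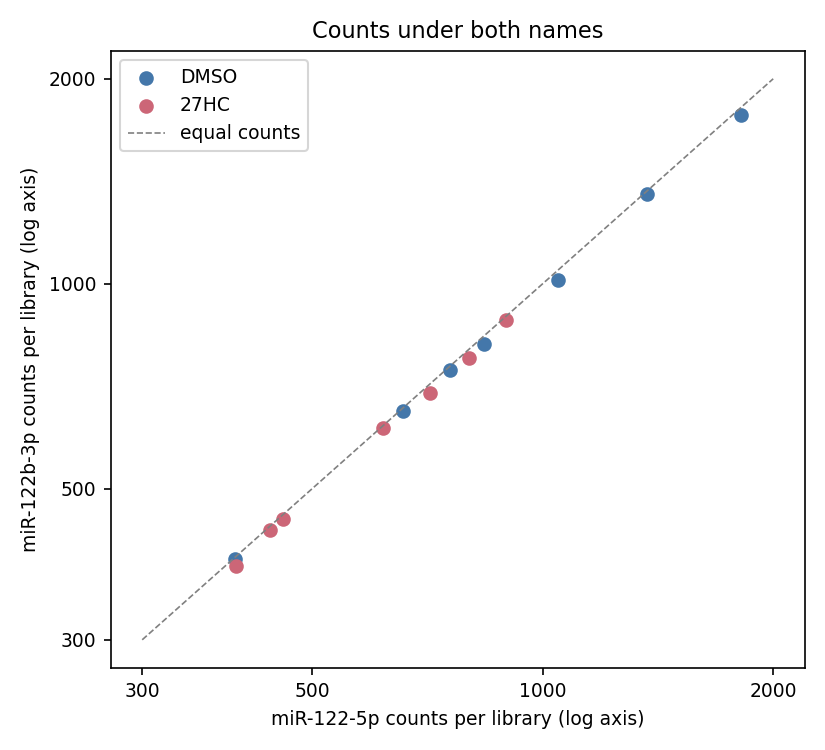
Counts of miR-122b-3p against counts of miR-122-5p, both on log axes, 1 point per library, DMSO in blue and 27HC in red. All 14 points lie just under the dashed line of equal counts, at 96.7 to 99.5% of it.

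A list of 5 liver miRNAs (miR-122-5p, miR-122-3p, miR-192-5p, miR-194-5p and miR-148a-3p) was read beside miR-122-5p, since neutrophils are not its usual source. The list summed to 18022 to 27799 CPM in DMSO and 22478 to 30371 CPM in 27HC, with 4 of 5 tested, 0 called by edgeR, 0 at an unadjusted p under 0.05 and 0 of 5 at 0 in every library. Most of that sum was miR-148a-3p, which many tissues hold. miR-192-5p was at 110.6 to 263 CPM in DMSO and 78.1 to 208 CPM in 27HC. miR-194-5p was at 417 to 671 CPM in DMSO and 417 to 744 CPM in 27HC. The part of other cells or of the culture medium in the level of miR-122-5p was not tested.

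miR-122-5p also stood higher in replicates 5 to 7 than in replicates 1 to 4 of both groups. Replicates 5 to 7 averaged 3636 ± 517 CPM (SD, n = 6) and ran from 3175 to 4587 CPM. Replicates 1 to 4 averaged 2780 ± 461 CPM (SD, n = 8) and ran from 1895 to 3307 CPM. The other tested liver miRNAs shared that order only in part. In DMSO, miR-194-5p averaged 441 ± 28.8 CPM in replicates 5 to 7 and 594 ± 86.5 CPM in replicates 1 to 4 (SD, n = 3 and 4). In 27HC it averaged 615 ± 52.5 and 589 ± 134 CPM. miR-192-5p was likewise lower in replicates 5 to 7 in DMSO (130 against 212 CPM) and higher in 27HC (146 against 131 CPM). miR-148a-3p was lower in replicates 5 to 7 in both groups. miR-128-3p (1026 ± 86.4 against 1215 ± 185 CPM) and miR-185-5p (826 ± 170 against 1019 ± 122 CPM) were lower in replicates 5 to 7. These differences are a description, because the division was drawn from the same libraries. The fitted 27HC effect on miR-122-5p was 0.06 in replicates 1 to 4 and −0.15 in replicates 5 to 7, and that on miR-128-3p was 0.17 and −0.01. For the difference between sets, likewise as a description, edgeR gave p values of 0.520 for miR-122-5p and 0.596 for miR-128-3p.

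miR-378a, cut from an intron of Ppargc1b, gives a pair of arms that both act on fatty acid and energy metabolism. The major arm, miR-378a-3p, ranked 59. DMSO libraries had 945 at the lowest, 1157 at the median and 1485 CPM at the highest, and 27HC libraries 1010, 1366 and 1558 CPM. The ranges overlapped over most of their length, with 2 27HC libraries (replicates 1 and 7) above the highest DMSO library. Means of 1181 ± 177 and 1323 ± 209 CPM (SD, n = 7) gave a fitted log2 difference of 0.16 (SE 0.12, 95% interval −0.10 to 0.43, edgeR adjusted p = 0.503).

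The minor arm, miR-378a-5p, ranked 167, with 9 to 60 counts per library. It ran from 70.4 through 114 to 159 CPM in DMSO and from 64.9 through 89.9 to 139 CPM in 27HC. The highest library was DMSO replicate 6 and the lowest 27HC replicate 3, and the ranges covered each other nearly throughout. Its log2 fold change was −0.13 (SE 0.24, 95% interval −0.64 to 0.38, edgeR adjusted p = 0.833), from means of 111 ± 30.8 and 99.7 ± 29.7 CPM (SD, n = 7).

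The ratio of the 2 arms within a library does not depend on how libraries are scaled. miR-378a-3p had 7.40 to 20.6 times the counts of miR-378a-5p in DMSO, with a median of 11.1. In 27HC it had 7.57 to 19.4 times the counts, with a median of 16.4. The mean log2 ratio was 3.42 ± 0.54 in DMSO and 3.73 ± 0.60 in 27HC (SD, n = 7). Between groups it differed by 0.30, less than either SD, with an exact two-sided permutation p of 0.337 over all 3432 splits, where the smallest possible p is 0.000583. Of the 27HC libraries, 4 (replicates 1, 3, 5 and 7) had a ratio above 16, and of the DMSO libraries 1 (replicate 7). Over the 14 libraries the log2 CPM of the arms had a Pearson r of −0.56, a description of values that share libraries and depth.

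**Figure D5:**
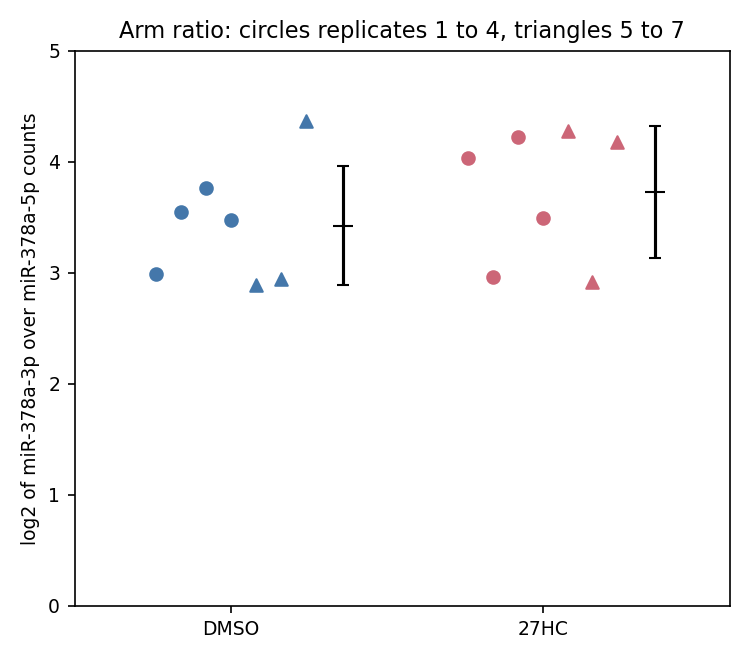
Log2 ratio of miR-378a-3p to miR-378a-5p counts per library, with 0.5 added to each count, in DMSO (blue) and 27HC (red), circles for replicates 1 to 4, triangles for 5 to 7, and the mean ± SD beside them. The groups cover nearly the same range, with means of 3.42 and 3.73.

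Near-identical relatives may share reads with miR-378a-3p, since the rule for reads that match several names is not given in the sources used here. miR-378d had 19.6 to 41.7% and miR-378c 10.9 to 22.1% of the counts of miR-378a-3p per library. Their log2 fold changes were −0.10 (SE 0.17) for miR-378d and −0.05 (SE 0.18) for miR-378c, with edgeR adjusted p of 0.818 and 0.934. miR-378b had 20 counts in DMSO and 18 in 27HC and was not tested.

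As a share of all counts, the 9 members held 0.663 ± 0.142% in DMSO and 0.658 ± 0.0531% in 27HC (SD, n = 7). The DMSO share ran from 0.504 to 0.944%, the latter in replicate 7, and the 27HC share from 0.592 to 0.723%. The largest single part was miR-122-5p, at 49.1 ± 6.79% of the members' counts in DMSO and 45.5 ± 6.35% in 27HC. Without it the shares were 0.331 ± 0.0403% and 0.357 ± 0.0325%, a difference again smaller than 1 SD.

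Other miRNAs with known links to cholesterol or lipid genes were read as a pair of lists. Of 14 miRNAs that act on export, 10 were tested, and 1 rose and 0 fell, with a median log2 fold change of −0.02. The one that rose was miR-27a-3p, whose seed is that of miR-128-3p moved by 1 base and which also acts on ABCA1. It went from 2226 ± 234 CPM in DMSO to 2759 ± 288 CPM in 27HC (SD, n = 7), and 5 of the 7 27HC libraries were above the highest DMSO library. Its log2 fold change was 0.31 (SE 0.09, 95% interval 0.11 to 0.51, edgeR adjusted p = 0.0369). This call was lost, at fitted values of 0.28 to 0.30, without DMSO replicate 2 (adjusted p = 0.0726), DMSO replicate 6 (0.0762) or 27HC replicate 3 (0.0865) and in limma-voom (0.0554). It was also lost with upper quartile scaling (0.22, adjusted p = 0.143) and without a filter (0.20, adjusted p = 0.683). Replicates 1 to 4 alone gave 0.29 (adjusted p = 0.0997) and replicates 5 to 7 alone 0.43 (adjusted p = 0.181). The near-identical miR-27b-3p, which may share its reads, had a fitted log2 difference of 0.22 (SE 0.09, adjusted p in edgeR 0.136). The most abundant tested names of the list, miR-93-5p and miR-148a-3p, had log2 fold changes of −0.11 (SE 0.09) and 0.18 (SE 0.13), and neither was called. In all, 4 of the 10 had an unadjusted edgeR p under 0.05, against 53 of all 239 tested names. These 4 were the miR-27 names, which were higher in 27HC, and the miR-26 names, which were lower. The lowest values of the list were those of miR-26b-5p, at −0.60 (SE 0.20, edgeR adjusted p = 0.0687), and miR-26a-5p, at −0.48 (SE 0.18, edgeR adjusted p = 0.106).

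Of 17 miRNAs that act on lipoprotein uptake, sterol synthesis or lipid storage, 11 were tested, and 0 rose and 1 fell, with a median of −0.08. The one that fell was miR-103-3p, known for its action on insulin sensitivity and lipid metabolism. It had 2390 ± 554 CPM in DMSO and 1566 ± 236 CPM in 27HC (SD, n = 7), and 6 of the 7 27HC libraries were below the lowest DMSO library. The log2 fold change was −0.61 (SE 0.14, 95% interval −0.91 to −0.31, edgeR adjusted p = 0.00906), and in replicates 5 to 7 alone it was −0.49 (adjusted p = 0.0644). Its near-identical relative miR-107-3p had a log2 fold change of −0.01 (SE 0.11), and how reads were divided between them is not known. The most abundant tested names were miR-223-3p, a repressor of SR-BI, at −0.26 (SE 0.17), and miR-21a-5p, at −0.02 (SE 0.08), and neither was called. A fit of replicates 1 to 4 alone, a set drawn from these same libraries, did call the former. Its log2 value there was −0.43 and its edgeR adjusted p 0.0129. In the 2 lists together 2 of 21 tested names were called, against 12.6% of all tested names.

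For each tested member, the names whose log2 CPM followed it most closely over the 14 libraries were listed by Pearson r, as a description of values that share libraries and depth. After miR-122b-3p (r = 0.999), miR-122-5p was followed by miR-298-5p (0.88) and let-7b-5p (0.87). miR-128-3p was closest to miR-25-3p (0.87), miR-423-3p (0.79) and let-7d-3p (0.74). miR-185-5p went with miR-148b-3p (0.87), miR-141-3p (0.85) and miR-148a-3p (0.83). The arms of miR-378a had other companions, with weaker values for the 3p arm: miR-20a-5p (0.59), miR-130a-3p (0.57) and miR-574-5p (0.53). For miR-378a-5p they were miR-674-5p (0.80), miR-34a-5p (0.58) and miR-1981-5p (0.48). No name stood in the lists of 2 members, and r between members ran from −0.60, for miR-122-5p and miR-185-5p, to 0.46, for miR-128-3p and miR-185-5p. After removal of the means of group and replicate set, r for these 2 pairs was −0.30 and 0.27. The range over all pairs was then −0.60, for miR-378a-3p and miR-378a-5p, to 0.46, for miR-185-5p and miR-378a-3p.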

How the data were processed

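The authors deposited raw counts, whole numbers for each mature miRNA in each library. A commercial kit was used to isolate vesicles, RNA was extracted with miRNeasy Micro and libraries were made with QIAseq miRNA, per the labels' protocols. The submitters' processing notes name R 4.1.2, edgeR, limma and the builds GRCm39 and mm39. The aligner, the counting rule and the use of molecular identifiers are not given in the sources used here, so a count may be a read or a molecule. All columns and rows of the table were matched to labels.

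Counts were tested with edgeR 4.0.16 (quasi-likelihood, TMM, filterByExpr at its default minimum of 10 counts, 15 in total) in R 4.3.3, with treatment as the only term and Benjamini-Hochberg adjustment over all 239 tested names, which held 99.4% of counts. On simulated counts with a 4-fold change, 25 of 25 changed names that were tested were called, with 0 unchanged names called. The simulation gave all names the same dispersion and had no replicate sets, unlike the data. Smaller changes were not simulated. Alternatives were DESeq2 1.42.0, limma-voom (limma 3.58.1), other scalings and filters, a replicate block, and libraries left out. The arm ratio had an exact permutation test. Correlations used log2 CPM with a prior count of 2.

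The members, the lists and the split of replicates were chosen with earlier results of these data known. The miRNAs named one by one are the members, their arms and relatives, called or most abundant names of the lipid lists, and the 3 closest names of each tested member. miR-122b-5p, miR-27b-3p, miR-107-3p, the miR-26 names and the names of the myeloid list were added after their values were seen. Coordinates and sequences belong to GRCm38, not to the authors' build.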

Additional observations from a re-analysis of the deposited data

Results flagged for a closer look

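In 4 of the 20 groups of 7 libraries examined, 1 library lay far from the other 6. Chance gives about 1 in 20 for continuous values, but each case here was a scarce name with counts in 1 library and 0 in the others of its group, which always meets the rule, so the number of cases shows nothing more: miR-33-3p in DMSO replicate 3 (1.36 CPM) and in 27HC replicate 4 (3.16 CPM), miR-96-5p in 27HC replicate 4 (12.6 CPM), and miR-758-3p in 27HC replicate 1 (2.37 CPM). These levels stood for 1, 1, 4 and 1 counts.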

How the results depend on the processing

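With all 25 alternatives to the fit, 0 of the tested members were called. The number of names called was 12 in replicates 5 to 7 alone, against 30 in all libraries, 42 in replicates 1 to 4 alone and 21 to 34 with 1 library left out. Fits of replicates 5 to 7 rest on fewer libraries and names. The difference in arm ratio was 0.21 to 0.46 and that in the members' share of counts −0.0312 to 0.042 percentage points with 1 library left out. Same-numbered libraries of the groups correlated at 0.0686 to 0.600, with 6 of 14 closest to their own number. These values do not settle whether the numbers mark pairs, and the labels do not say. The main fit did not pair them. With the replicate block 37 names and 0 members were called, and the arm ratio differed by 0.30 (exact sign-flip permutation p = 0.359).

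Directions near 0 turned, and the cause was not tested. miR-128-3p was −0.0234 with upper quartile scaling, −0.0312 without a filter and −0.0059 in replicates 5 to 7 alone. In replicates 1 to 4 alone, miR-122-5p was 0.0637, miR-378a-5p 0.0903 and miR-378c 0.0642. The fit of replicates 5 to 7 gave 0.147 for miR-223-3p, 0.0888 for miR-21a-5p and 0.215 for miR-378d. miR-21a-5p was 0.0113 with RLE scaling and 0.00995 in DESeq2. With 1 library left out, miR-122-5p ran from −0.144 to 0.0828, miR-128-3p from 0.00298 to 0.208, miR-378a-5p from −0.189 to −0.0129, miR-21a-5p from −0.0725 to 0.0632, miR-378c from −0.0896 to 0.0817 and miR-378d from −0.152 to 0.0231. miR-185-5p stayed between 0.11 and 0.51 and miR-378a-3p between 0.08 and 0.29 in all 25. Depth limits the 4 scarce members: a single count was 1.36 to 8.20 CPM per library.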
